A study of Mus musculus with 21 samples.

Results

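The genes described are 10 receptors, bridging ligands and adaptors with which a phagocyte recognises and engulfs dying cells: Tyro3, Axl, Mertk, Gas6, Pros1, Mfge8, Scarb1, Stab1, Adgrb1 and Elmo1. They were taken by symbol from a table of 55453 gene symbols, in which each of the 10 stood on 1 entry, and all 10 passed the filter on low values. The table holds RNA sequencing of whole testes from male C57BL6 mice in 4 groups: wild type without heat shock (n = 6), Mageb4 knockout without heat shock (n = 6), wild type 72 h after heat shock (n = 4) and Mageb4 knockout 72 h after heat shock (n = 5). The design crosses loss of Mageb4, a member of the MAGE gene family, with heat shock. No source used here gives the age of the mice, the dose of heat or the kind of knockout allele. Libraries were prepared as biological replicates per the labels' protocols.

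A germ cell that dies in the seminiferous tubule exposes phosphatidylserine on its surface and is taken up mainly by the Sertoli cell that surrounds it, which also clears the residual cytoplasm shed by maturing spermatids. Tyro3, Axl and Mertk are receptor tyrosine kinases (the TAM family) that bind phosphatidylserine through the bridging proteins Gas6 and protein S (Pros1), while Mfge8 links it to integrins that contain the alpha-v chain. Scarb1, Stab1 and Adgrb1 are receptors that bind phosphatidylserine directly, and Elmo1 passes the signal of Adgrb1 to the Dock1 exchange factor and the GTPase Rac1. In the interstitium, macrophages express many of the same genes.

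In the mouse genome build mm10 (GENCODE M21) the 10 protein-coding genes lie apart from each other. The TAM receptor genes are Tyro3 at chr2:119797733-119818104, Mertk at chr2:128698956-128802894 and Axl at chr7:25757273-25788705. The ligand genes are Gas6 at chr8:13465374-13494490, Pros1 at chr16:62854307-62929346 and Mfge8 at chr7:79133768-79149060. The remaining genes are Scarb1 at chr5:125277087-125341094, Stab1 at chr14:31139013-31168641, Adgrb1 at chr15:74516195-74589465 and Elmo1 at chr13:20090596-20608353.

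Where these genes start was looked up because 9 of the 10 rose after heat in each genotype. Of all genes tested, 47% rose in wild type and 41.3% in the knockout, so a shared rise is common here. RefSeq windows (GRCm38.p6) were found for 8 of the 10 genes, with 2 windows for Elmo1, and the 250 bases before the start site were searched. In 1 of the Elmo1 windows all 250 bases lay in GENCODE exons, and in the Tyro3 window 128 of the 250 did. The windows of the TAM receptors Mertk and Axl and of the bridging ligands Gas6, Pros1 and Mfge8 are shown 5′ to 3′ on the strand of the gene. Capitals mark GC boxes, searched as GGGCGG on both strands, and a pair of heat shock element units, searched as TTCNNGAA and GAANNTTC on both strands.

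Mertk, chr2:128698665-128698914, plus strand: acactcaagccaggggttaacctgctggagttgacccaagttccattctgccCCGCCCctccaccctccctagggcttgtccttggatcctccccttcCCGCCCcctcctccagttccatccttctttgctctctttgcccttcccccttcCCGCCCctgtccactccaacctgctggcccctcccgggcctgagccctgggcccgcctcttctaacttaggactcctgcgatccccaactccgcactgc

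Axl, chr7:25788734-25788983, minus strand: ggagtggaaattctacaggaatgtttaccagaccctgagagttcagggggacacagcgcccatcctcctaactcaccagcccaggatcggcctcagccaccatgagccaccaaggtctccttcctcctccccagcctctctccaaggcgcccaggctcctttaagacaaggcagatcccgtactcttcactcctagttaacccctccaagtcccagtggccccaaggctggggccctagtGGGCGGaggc

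Gas6, chr8:13494536-13494785, minus strand: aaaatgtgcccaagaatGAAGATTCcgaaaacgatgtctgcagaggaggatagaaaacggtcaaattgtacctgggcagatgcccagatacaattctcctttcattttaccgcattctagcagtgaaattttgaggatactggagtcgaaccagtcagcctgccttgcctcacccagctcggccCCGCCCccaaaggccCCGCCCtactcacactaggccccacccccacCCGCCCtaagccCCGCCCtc

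Pros1, chr16:62854057-62854306, plus strand: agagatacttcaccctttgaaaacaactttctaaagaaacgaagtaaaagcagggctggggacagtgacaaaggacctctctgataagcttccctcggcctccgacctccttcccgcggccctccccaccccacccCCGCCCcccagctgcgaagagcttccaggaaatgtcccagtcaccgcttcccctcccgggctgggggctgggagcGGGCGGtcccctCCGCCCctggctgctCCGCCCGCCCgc

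Mfge8, chr7:79149061-79149310, minus strand: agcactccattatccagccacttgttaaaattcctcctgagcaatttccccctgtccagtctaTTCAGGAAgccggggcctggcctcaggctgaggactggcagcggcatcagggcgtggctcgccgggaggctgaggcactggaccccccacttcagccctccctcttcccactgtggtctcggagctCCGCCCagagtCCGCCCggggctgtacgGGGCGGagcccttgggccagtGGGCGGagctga

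A GC box stood in 7 of the 9 windows, against 32.75% of 32841 windows of the same length over all genes. G and C made up 54.8% to 73.2% of those 7 windows, against a median of 52.4% over all windows. The part of base composition in these matches was not tested. The pair TTCNNGAA stood in 1 of the 9 windows, that of Mfge8, at position -187 from the start site, and is found in 7.17% of all windows. The pair GAANNTTC stood in 1 of the 9, that of Gas6, at position -233, and is found in 6.7% of all windows. The windows of Mertk, Axl and Pros1 held neither pair. The AP-1 letters TGANTCA stood in none of the 9 windows (6.75% of all windows), CCAAT in that of Stab1 (33.9%) and TATAAA in 1 window of Elmo1 (12.4%). These are matches of letters, and binding was not measured.

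Values are TPM, transcript abundances that are scaled to the same total in each library and corrected for transcript length, so levels of different genes can be compared and sequencing depth is unknown. The 10 most abundant genes took 5.61% to 13.4% of a library, and log2 values of libraries of a group correlated at 0.971 to 0.994 (Pearson, across genes). Changes in log2 are differences of mean log2(TPM + 1) with a standard error, a scale that understates the change of low genes, and fold changes are ratios of mean TPM. A gene was called at a limma adjusted p under 0.05, adjusted over the 18977 genes that averaged 1 TPM or more. The targeted gene Mageb4 was at 1.53 to 1.99 TPM in unheated wild type, 7.82 to 8.26 TPM in heated wild type, and at most 0.15 TPM in every knockout library.

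**Figure D1:**
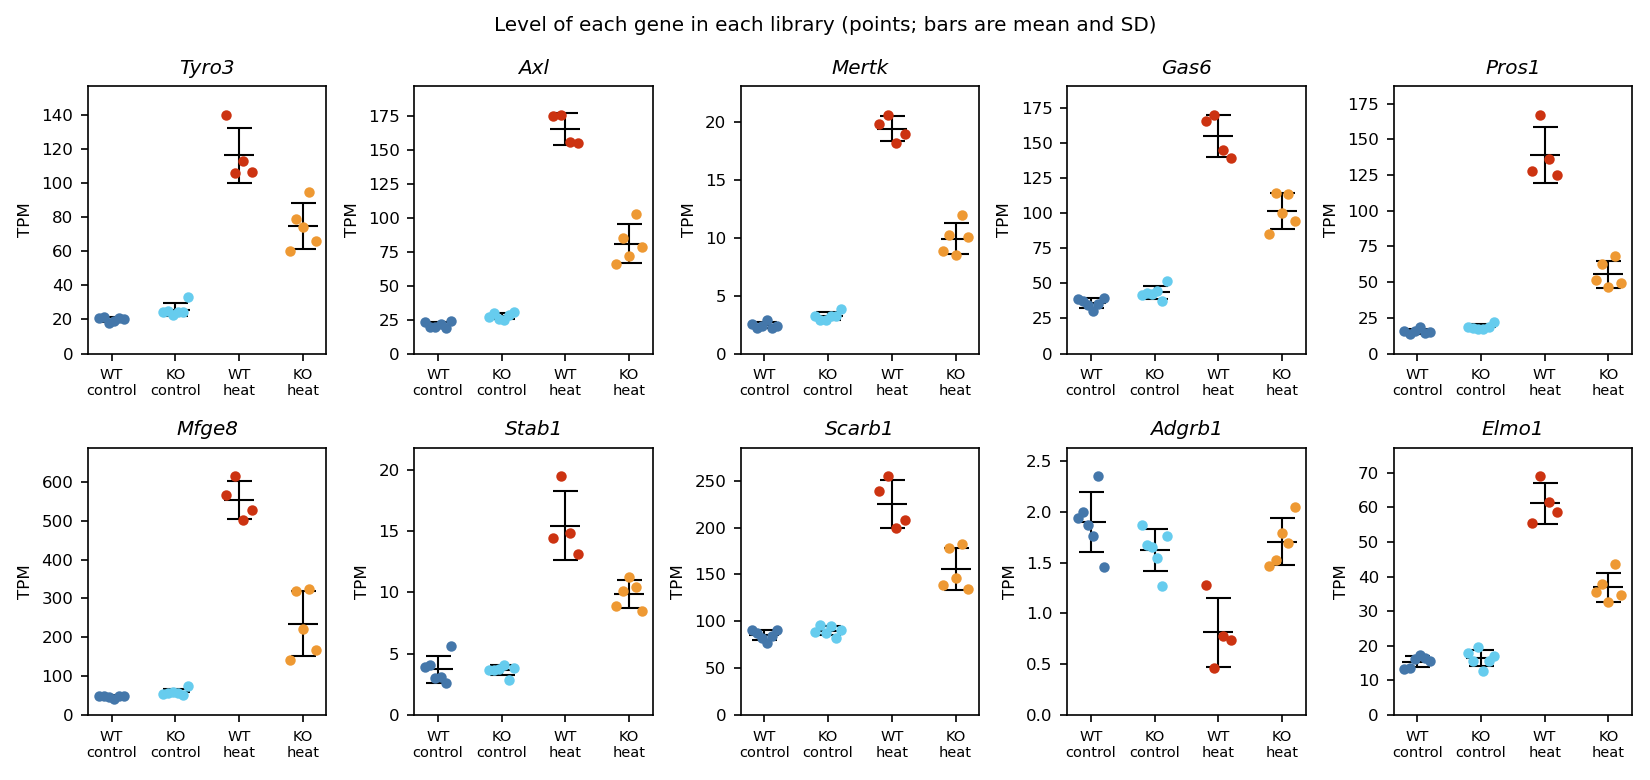
TPM of the 10 genes in each of the 21 libraries (y axis, from 0 in each panel), by group (x axis), with points for libraries and bars for the mean and SD. Heated wild type is the highest group for every gene but Adgrb1, where it is the lowest, and heated knockout lies between it and the unheated groups for the other 9.

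In unheated wild type the order of levels was led by Scarb1 at 85.3 ± 5.41 TPM (SD, n = 6), followed by Mfge8 at 47.2 ± 3.402 TPM and Gas6 at 36.04 ± 3.49 TPM, with ranges that did not overlap. Axl at 21.05 ± 2.11 TPM, Tyro3 at 19.98 ± 1.37 TPM, Pros1 at 15.5 ± 1.76 TPM and Elmo1 at 15.4 ± 1.56 TPM came next, and the range of each overlapped that of its neighbour. Stab1 at 3.73 ± 1.09 TPM, Mertk at 2.44 ± 0.246 TPM and Adgrb1 at 1.897 ± 0.293 TPM were lowest, again with overlapping neighbours. In heated wild type Mfge8 stood first at 552 ± 49.2 TPM (SD, n = 4), above Scarb1 at 225 ± 25.9 TPM in every library.

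Heat in wild type was followed by a rise of 9 of the 10 genes and a fall of 1, Adgrb1. Among all genes tested 91.6% were called in this comparison, 47% as higher and 44.6% as lower, so a call alone sets the 10 genes little apart. Their median log2 difference was 2.28, against 0.07 over all genes. The groups did not overlap for any of the 10, as for 44.5% of all genes upward and 42% downward. Median-of-ratios scaling shifts the median of all genes by -0.21 in this comparison, and each of the 10 kept its direction and its call under it.

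Of the 6 receptors among the 10 genes, the TAM receptors rose most. Axl went from 18.55, 20.67 and 23.6 TPM (lowest, median and highest of 6) in unheated wild type to 175.17, 175.97, 155.74 and 154.93 TPM in heated wild type. Every heated library lay far above every unheated one, a 7.86-fold rise (log2 difference 2.92 ± 0.10, limma adjusted p = 7.83e-17). Mertk, which is the TAM receptor best known for engulfment, went from 2.18, 2.39 and 2.85 TPM to 19.82, 20.59, 18.11 and 18.94 TPM. That was a 7.95-fold rise (2.57 ± 0.08, limma adjusted p = 4.00e-17), with little spread among the 4 heated testes. Tyro3 went from 17.79, 20.44 and 21.24 TPM to 140.31, 106.21, 113.28 and 106.36 TPM, 5.83-fold (2.48 ± 0.11, limma adjusted p = 4.92e-15). Wild-type heat replicate 1 was the high library there, and the other 3 lay close together.

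The bridging ligands rose as well, Pros1 more than Gas6 in TPM ratio. Gas6, which binds all TAM receptors, went from 30.18, 36.55 and 39.59 TPM to 165.7, 170.34, 145.46 and 139.32 TPM, 4.31-fold (2.08 ± 0.09, limma adjusted p = 5.33e-15). Pros1, known also as a plasma anticoagulant, went from 13.75, 15.3 and 18.74 TPM to 127.45, 167.22, 136.15 and 124.83 TPM, 8.97-fold (3.08 ± 0.11, limma adjusted p = 1.08e-16). Its highest heated library was replicate 2, and no heated value came near the unheated range. Mfge8 went from 40.96, 48.73 and 49.95 TPM to 566.59, 614.58, 502.12 and 526.7 TPM, 11.7-fold (3.52 ± 0.17, limma adjusted p = 1.60e-14). This was the largest rise among the 10, and 99.7% of all tested genes had a lower log2 difference.

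The direct phosphatidylserine receptors did not share a direction. Stab1, a scavenger receptor of macrophages and sinusoidal endothelium, went from 2.64, 3.52 and 5.64 TPM to 14.4, 19.46, 14.8 and 13.08 TPM, 4.14-fold (1.81 ± 0.14, limma adjusted p = 2.69e-11). Scarb1, the high-density lipoprotein receptor that also serves steroidogenic cells, went from 76.58, 85.62 and 90.73 TPM to 238.81, 254.93, 199.39 and 208.64 TPM, 2.64-fold (1.39 ± 0.09, limma adjusted p = 9.93e-13). Heated and unheated libraries stood apart for both, though Scarb1 rose least of the 9. Adgrb1, an adhesion G protein-coupled receptor, went the other way, from 1.46, 1.91 and 2.35 TPM to 1.28, 0.46, 0.78 and 0.74 TPM. It was 2.33-fold lower (log2 difference -0.69 ± 0.11, limma adjusted p = 3.01e-06), at levels near the lower end of what was tested. The adaptor Elmo1 went from 13.42, 15.93 and 17.22 TPM to 55.51, 69.05, 61.48 and 58.59 TPM, 3.96-fold (1.92 ± 0.10, limma adjusted p = 6.44e-14).

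Heat in the knockout was followed by a rise of the same 9 genes, and Adgrb1 was not called. Of all genes tested 82.8% were called, 41.3% as higher and 41.5% as lower, and the median log2 difference was 1.295 over the 10 genes against 0.01 over all. All 5 heated libraries lay above all 6 unheated ones for each of the 9, as for 33.9% of all genes (35.8% lay wholly below). Axl went from 24.8, 27.66 and 30.81 TPM to 65.84, 85.42, 71.53, 102.71 and 78.44 TPM, 2.91-fold (1.49 ± 0.09, limma adjusted p = 4.42e-12). Mertk went from 2.86, 3.21 and 3.81 TPM to 8.85, 10.23, 8.47, 11.91 and 10.01 TPM, 3.09-fold (1.37 ± 0.08, limma adjusted p = 1.00e-12). Tyro3 went from 22.61, 24.57 and 33.32 TPM to 60.36, 78.86, 74.25, 95.14 and 66.23 TPM, 2.91-fold (1.499 ± 0.11, limma adjusted p = 2.89e-11). The folds of the 3 receptors were thus closer to each other than in wild type.

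Among the ligands of the heated knockout, Gas6 stood at 85.39, 114.55, 100.52, 113.87 and 94.27 TPM against 37.58, 42.98 and 51.8 TPM without heat, 2.33-fold (1.198 ± 0.09, limma adjusted p = 6.56e-11). Pros1 stood at 51.51, 62.32, 46.23, 68.29 and 49.31 TPM against 17.19, 18.2 and 22.11 TPM, 2.98-fold (1.51 ± 0.10, limma adjusted p = 1.25e-11). Mfge8 stood at 142.6, 318.74, 220.57, 322.97 and 168.03 TPM against 50.96, 56.68 and 75.78 TPM, 3.99-fold (1.91 ± 0.16, limma adjusted p = 4.87e-10). Mfge8 had the widest spread of the 10 among heated knockout testes, with a coefficient of variation of 35.7%, and replicates 2 and 4 were more than 2 times replicate 1. Scarb1, Stab1 and Elmo1 rose 1.73-fold, 2.703-fold and 2.24-fold (limma adjusted p = 1.37e-08, 1.41e-08 and 5.70e-10). Adgrb1 stood at 1.47, 1.53, 1.79, 1.69 and 2.05 TPM against 1.27, 1.66 and 1.87 TPM, with overlapping groups (0.04 ± 0.10, limma adjusted p = 0.698).

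Heated knockout libraries were ordered alike by most of these genes. Replicate 4 was the highest of the 5 for 7 of the 9 genes that rose, and among the 2 highest for all 9. Replicate 2 was among the 2 highest for 8 of the 9, and replicate 1 was the lowest for 4. The summed TPM of 15 Sertoli cell markers was 7911.6 in replicate 4 and 7781.2 in replicate 2, against 5613.0, 6511.6 and 5691.1 in replicates 1, 3 and 5. Replicates 4 and 2 were also the 2 highest for endothelial (66.48 and 63.76 TPM) and peritubular myoid markers (916.8 and 900.9 TPM). The same held for macrophage markers other than Aif1 (289.9 and 312.2 TPM). With Aif1 that sum was lowest in replicate 4, 1068.1 TPM, and Leydig cell markers were highest in replicate 3, 5503.1 TPM. Spermatocyte markers were lowest in replicates 4 and 2 (2363.0 and 2569.1 TPM). In heated wild type, replicate 2 was the highest for 8 of the 9 genes. The part of these marker levels in the spread was not tested.

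**Figure D2:**
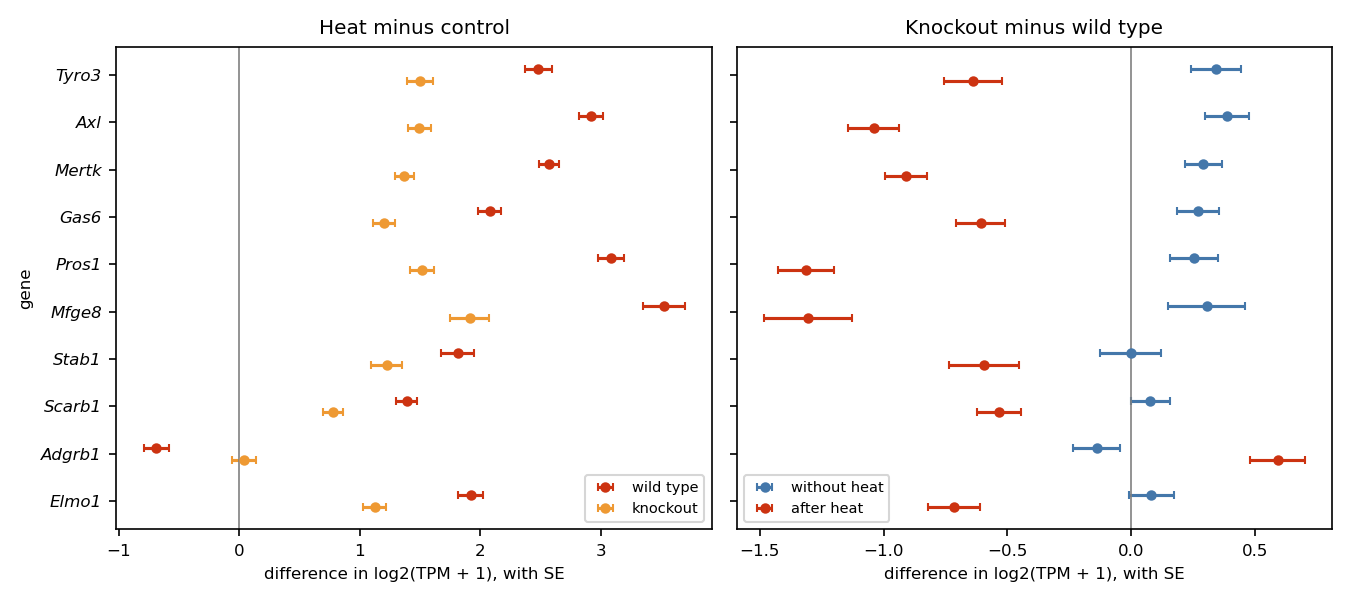
Difference in log2(TPM + 1) with its standard error (x axis) for each of the 10 genes (y axis), for heat minus control in each genotype (left) and knockout minus wild type without and after heat (right). On the left the wild-type points lie farther from 0 than the knockout points for every gene; on the right the points after heat lie below 0 for every gene but Adgrb1.

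The direct comparison of heated testes had 9 of the 10 genes lower and 1, Adgrb1, higher in the knockout, where 83.5% of all genes were called (34.4% higher and 49% lower). The median log2 difference was -0.68 over the 10 genes and -0.20 over all, and the groups did not overlap for any of the 10 (42.5% of all genes downward, 29.9% upward). Median-of-ratios scaling shifts the median of all genes by 0.11 in this comparison, and no call among the 10 was lost under it. Pros1 was 2.501-fold lower in the heated knockout (log2 difference -1.31 ± 0.11, limma adjusted p = 1.30e-09), Mfge8 2.36-fold (-1.304 ± 0.18, limma adjusted p = 9.59e-07), Axl 2.05-fold (-1.04 ± 0.10, limma adjusted p = 1.10e-08) and Mertk 1.96-fold (-0.91 ± 0.09, limma adjusted p = 5.24e-09). Elmo1, Stab1, Tyro3, Gas6 and Scarb1 were 1.66-fold, 1.57-fold, 1.56-fold, 1.53-fold and 1.45-fold lower. Adgrb1 was 2.09-fold higher in the heated knockout (0.59 ± 0.11, limma adjusted p = 4.86e-05).

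The heat effects themselves differed between genotypes for all 10 genes, where 80.7% of all genes were called for this difference (33.2% higher and 47.6% lower). Knockout minus wild-type heat effect was -1.61 ± 0.24 for Mfge8, -1.57 ± 0.15 for Pros1, -1.42 ± 0.14 for Axl and -1.20 ± 0.11 for Mertk (limma adjusted p = 3.10e-06, 1.12e-08, 1.33e-08 and 1.09e-08). It was -0.98 ± 0.15 for Tyro3, -0.88 ± 0.13 for Gas6, -0.797 ± 0.14 for Elmo1, -0.61 ± 0.12 for Scarb1 and -0.59 ± 0.19 for Stab1, with limma adjusted p from 3.57e-06 to 0.00661. For Adgrb1 it was 0.73 ± 0.15 (limma adjusted p = 0.000118). The median was -0.93 over the 10 genes and -0.23 over all genes. This difference shares its heated libraries with the direct comparison of heated testes.

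Without heat, Axl was the only one of the 10 genes called between genotypes, against 1.33% of all genes (1.25% higher and 0.0843% lower in the knockout). The 6 knockout values ran from 24.8 to 30.81 TPM with a median of 27.66 TPM, and the 6 wild-type values from 18.55 to 23.6 TPM with a median of 20.67 TPM. The groups did not overlap, and Axl was 1.32-fold higher in the knockout (0.39 ± 0.09, limma adjusted p = 0.0416). This call was lost when any of 10 of the 12 unheated libraries was left out, with adjusted p up to 0.127 without knockout control replicate 6, and also without a filter (0.0778) and with quantile normalization (0.0863).

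Mertk, Tyro3 and Mfge8 also had all 6 unheated knockout values above all 6 wild-type values, as 4.33% of all genes did (0.643% lay wholly below), and were not called. Mertk ran from 2.86 to 3.81 TPM in the knockout against 2.18 to 2.85 TPM in wild type (0.29 ± 0.07, limma adjusted p = 0.0515), and Tyro3 from 22.61 to 33.32 TPM against 17.79 to 21.24 TPM (0.34 ± 0.10, limma adjusted p = 0.0835). Mfge8 ran from 50.96 to 75.78 TPM against 40.96 to 49.95 TPM (0.304 ± 0.15, limma adjusted p = 0.342). Gas6 and Pros1 differed by 0.27 ± 0.08 and 0.25 ± 0.096 with overlapping groups (limma adjusted p = 0.102 and 0.174). Scarb1, Elmo1, Stab1 and Adgrb1 differed by between -0.14 and 0.08, none of them called. Fitted on the unheated libraries alone, Axl, Mertk, Tyro3, Gas6 and Mfge8 were called (limma adjusted p from 0.0234 to 0.04995 for the last 4), so the count of called genes was 5 in place of 1. Over all 18977 genes that fit called 1175 higher and 137 lower in the knockout, against 237 and 16 in the fit of all 4 groups. Knockout control replicate 6 held the highest value of its group for 6 of the 9 genes other than Adgrb1. It also held the highest summed Sertoli and Leydig marker levels of all unheated libraries, 2587.8 and 2107.2 TPM. The endothelial, peritubular myoid and macrophage (without Aif1) sums were highest in knockout control replicates 4, 2 and 3, at 31.3, 610.2 and 118.0 TPM.

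Markers of testis cell types moved in the same comparisons. Of all genes tested, 47% were called higher and 44.6% lower after heat in wild type, and 41.3% and 41.5% in the knockout. The heated knockout had 49% of all genes lower than heated wild type, and 1.25% were higher in the knockout without heat. All 15 Sertoli cell markers rose after heat in each genotype, with median log2 differences of 2.798 in wild type and 1.56 in the knockout, and 14 of the 15 were lower in the heated knockout than in heated wild type. Their summed level ran from 1542.7 to 1771.3 TPM in unheated wild type, 1964.3 to 2587.8 TPM in unheated knockout, 12245.6 to 14843.5 TPM in heated wild type and 5613.0 to 7911.6 TPM in heated knockout. Without heat, 5 of the 15 were called higher in the knockout. Of the 12 macrophage markers 11 rose in each genotype, while Aif1, which held most of the summed level without heat, fell from 765.1 to 813.0 TPM to 95.1 to 210.6 TPM in wild type. In the heated knockout Aif1 stood at 778.2 to 1046.5 TPM, against 692.9 to 818.7 TPM without heat, and was not called. The sum over all 12 macrophage markers was therefore lower in heated wild type, 596.3 to 733.5 TPM, than in unheated wild type, where its median was 871.3 TPM and no library overlapped the heated ones. It was highest in the heated knockout, 1068.1 to 1306.0 TPM, against 793.7 to 913.1 TPM in the unheated knockout. Without Aif1, left out after its values were seen, the macrophage sum ran from 63.89 to 86.11 TPM in unheated wild type, 81.59 to 118.0 TPM in unheated knockout, 463.0 to 638.4 TPM in heated wild type and 226.0 to 312.2 TPM in heated knockout. All 9 Leydig cell and all 9 endothelial markers rose in each genotype, and no marker of these 4 lists was at 0 throughout a group. Of the 7 peritubular myoid cell markers 6 rose and 1 fell in wild type, and all 7 rose in the knockout. Their summed level ran from 730.8 to 803.3 TPM in heated wild type and from 753.6 to 916.8 TPM in heated knockout. Of the 9 spermatocyte markers 7 fell in each genotype, while 2 rose in wild type and 1 in the knockout. Of the 9 spermatid markers 8 fell and 1 rose in wild type, while 5 fell and 4 rose in the knockout. The summed spermatid marker level moved in opposite directions: it ran from 34233.6 to 44754.8 TPM without heat and 18813.8 to 26988.8 TPM with heat in wild type, and from 36640.3 to 43440.5 TPM without heat and 55693.2 to 71054.8 TPM with heat in the knockout. In whole testis, more RNA per cell, more cells of a type and less RNA from other cells cannot be told apart. TPM is scaled to the same total in each library. The part of the markers in the changes of the 10 genes was not tested. Epididymal markers stood at 3547.6 TPM in wild-type heat replicate 3, against at most 20.4 TPM in the other 20 libraries; the 10 genes kept their calls after heat without that library.

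**Figure D3:**
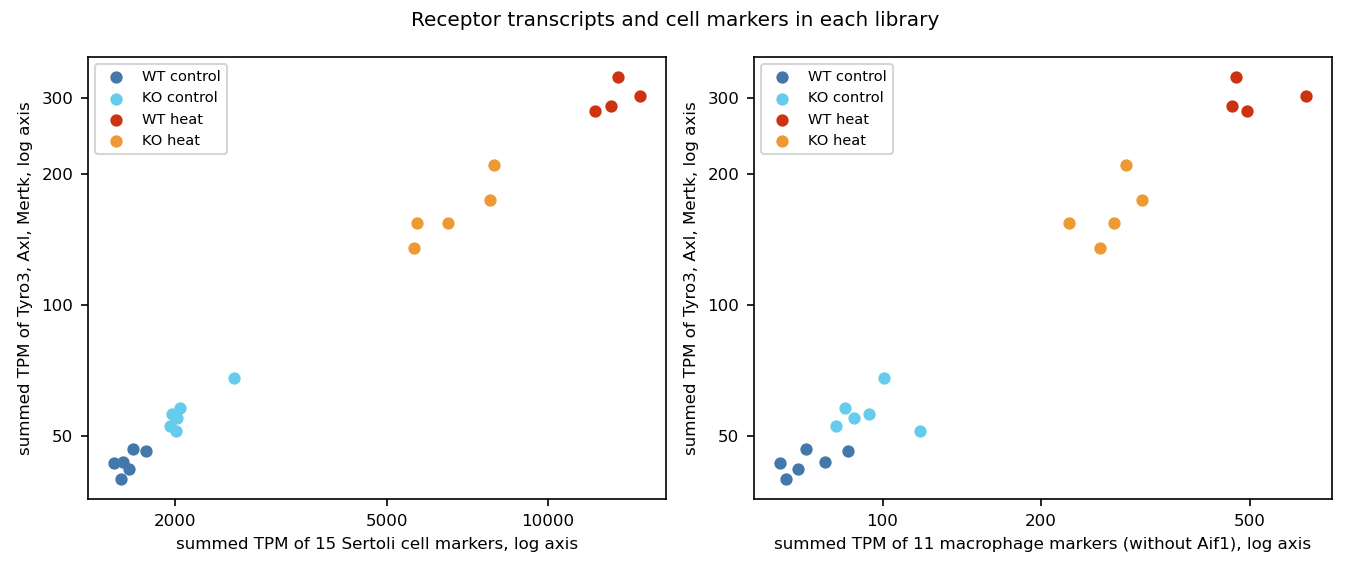
Summed TPM of Tyro3, Axl and Mertk (y axis, log) against the summed TPM of Sertoli cell markers (left) and of macrophage markers without Aif1 (right, both x axes log), 1 point per library, coloured by group. The heated groups stand apart on each axis, wild type above knockout. Receptor sums run from 39.7 TPM to 335.3 TPM over all libraries and from 135.1 TPM to 335.3 TPM in the heated ones. The unheated genotypes overlap in the macrophage sum and not in the Sertoli sum. With Aif1 included the macrophage sum is higher in heated knockout (1068.1 to 1306.0 TPM) than in heated wild type (596.3 to 733.5 TPM).

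The make-up of the receptor and ligand pools does not depend on the scaling of a library. In unheated wild type Tyro3 held 46.02% ± 2.996, Axl 48.4% ± 2.72 and Mertk 5.61% ± 0.575 of the summed TPM of the 3 receptors (SD, n = 6). In heated wild type Tyro3 held 38.6% ± 2.83, Axl 54.97% ± 2.45 and Mertk 6.44% ± 0.42 (n = 4). The Tyro3 share of every heated wild-type library, at most 41.9%, was below every unheated wild-type one, at least 43.6%, and the Axl share was above. In the heated knockout the shares of Tyro3, 45.2% ± 1.91, and Axl, 48.75% ± 1.55 (n = 5), overlapped those of the unheated knockout. The summed receptor level was 301 ± 24.5 TPM in heated wild type and 166 ± 28.3 TPM in heated knockout, against 43.5 ± 2.604 and 56.7 ± 5.96 TPM without heat.

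Gas6 held 69.8% ± 4.23 of the summed Gas6 and Pros1 TPM in unheated wild type and 70.05% ± 1.75 in the unheated knockout (SD, n = 6 each). After heat its share was 52.9% ± 2.62 in wild type (n = 4), with every library below every unheated one, and 64.8% ± 2.53 in the knockout (n = 5), where the ranges overlapped. The 2 ligands thus stood at nearly equal levels in heated wild type. These shares are descriptions of the libraries and were not tested.

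**Figure D4:**
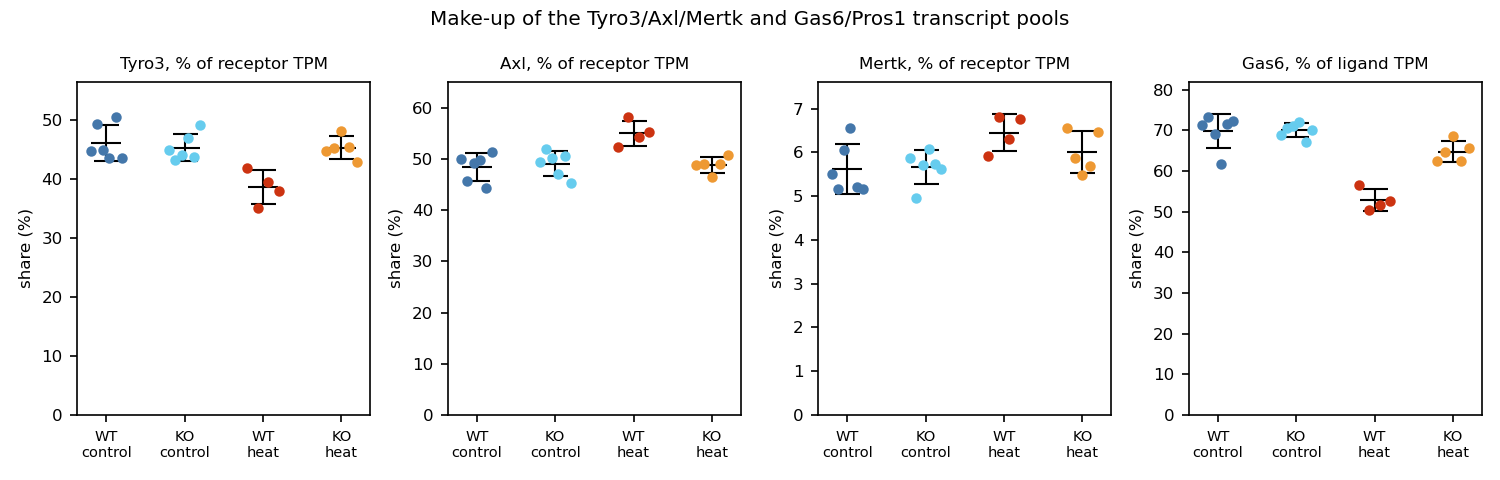
Share of each TAM receptor in the summed TPM of the 3 receptors, and of Gas6 in the summed TPM of Gas6 and Pros1 (y axes, percent, from 0), by group, with points for libraries and bars for the mean and SD. Heated wild type stands apart with less Tyro3, more Axl and less Gas6, at 38.6%, 54.97% and 52.9% on average.

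Beyond the 10 genes, 74 other genes of the clearance pathway were listed under 8 roles, and 59 of them passed the filter on low values. After heat in wild type 47 of the 59 rose and 10 fell, where 47% of all genes were called higher and 44.6% lower, and the median log2 difference was 1.56 against 0.07 over all genes. In the knockout 37 rose and 12 fell, where 41.3% of all genes were called higher and 41.5% lower, with a median of 0.68 against 0.01. Among receptors, Itgav and Itgb5, whose products form the integrin that binds Mfge8, rose 9.04-fold and 6.03-fold in wild type and 3.13-fold and 2.99-fold in the knockout, and Stab2, the paralog of Stab1, fell in each genotype. The lysosomal lipase gene Lipa rose most of the 59, from 4.01 ± 0.374 to 53.2 ± 4.75 TPM in wild type (SD, n = 6 and 4). The knockout had 5.05 ± 0.576 TPM before heat (n = 6) and 19.6 ± 4.81 TPM after it (n = 5). Adam10, a protease that sheds membrane receptors, rose 9.69-fold in wild type and 3.16-fold in the knockout, and Ucp2, a mitochondrial carrier, 8.14-fold in wild type and 3.29-fold in the knockout. Lrp1, an engulfment receptor for calreticulin, rose 5.52-fold in wild type and 3.63-fold in the knockout. Of the engulfment signalling genes 9 of 13 rose and 3 fell in wild type, and 6 rose and 4 fell in the knockout.

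Some pathway genes fell. Vav3, a guanine nucleotide exchange factor, fell from 13.5 ± 1.59 to 0.985 ± 0.277 TPM in wild type. In the knockout its level was 13.07 ± 0.893 TPM before and 4.09 ± 1.91 TPM after heat, also a fall. Its relative Vav1, known from blood cells, fell from 10.9 ± 0.886 to 1.46 ± 0.475 TPM in wild type and 3.27-fold in the knockout. Xkr8, the scramblase that exposes phosphatidylserine on apoptotic cells, fell from 69.5 ± 2.26 to 12.6 ± 1.31 TPM in wild type. The knockout had 68.2 ± 1.74 TPM of it before and 20.3 ± 2.71 TPM after heat. Tub, a bridging molecule for Mertk, fell in each genotype, against the direction of its receptor. Its level was 8.11 ± 0.591 TPM before and 1.105 ± 0.111 TPM after heat in wild type, and 7.85 ± 0.361 TPM before and 1.73 ± 0.461 TPM after heat in the knockout.

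In heated testes 47 of the 59 pathway genes were lower and 7 higher in the knockout, where 49% of all genes were called lower and 34.4% higher. Lipa, Adam10 and Itgav were lower by log2 differences of -1.42 ± 0.12, -1.32 ± 0.12 and -1.25 ± 0.13, while Vav3, Vav1 and Xkr8 were higher by 1.29 ± 0.18, 0.703 ± 0.13 and 0.65 ± 0.07. Without heat 1 of the 59 was called, a share near the 1.33% of all genes. It was Cdc42, a small GTPase of the actin cytoskeleton, at 65.7 ± 4.43 TPM in the knockout and 54.2 ± 3.46 TPM in wild type (0.27 ± 0.07, limma adjusted p = 0.0456). That call was lost when any unheated library but wild-type control replicate 4, or wild-type heat replicate 3, was left out (limma adjusted p up to 0.138, without knockout control replicate 6).

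**Figure D5:**
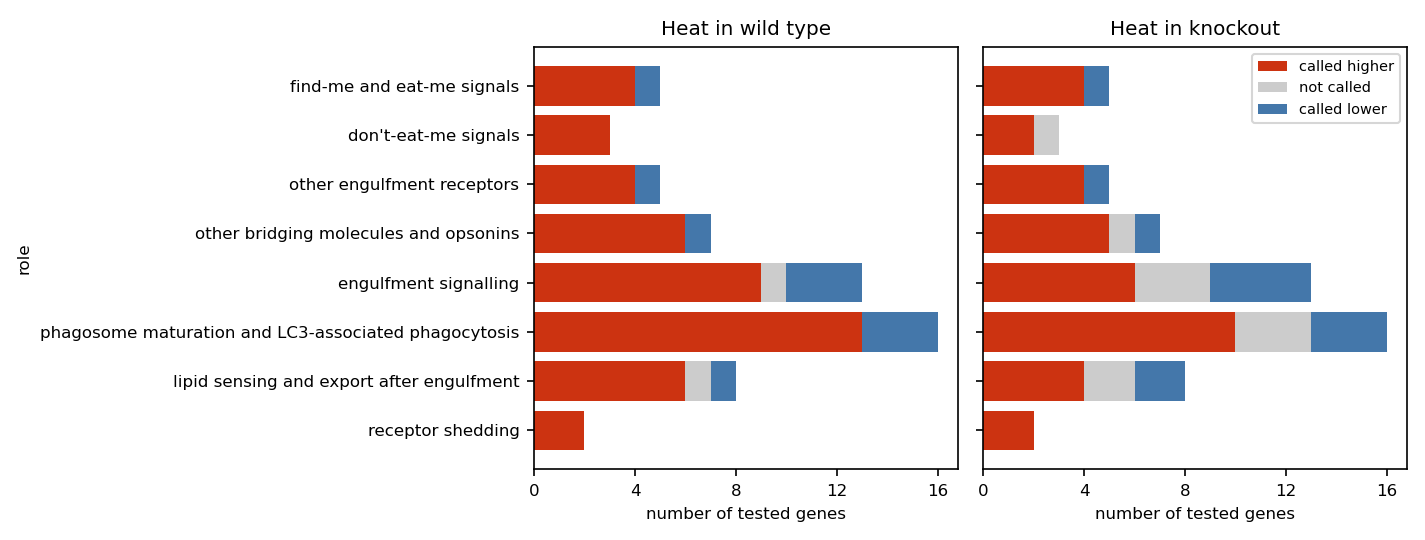
Number of tested pathway genes (x axis) called higher, called lower or not called after heat in wild type (left) and in the knockout (right), by role (y axis). Calls of higher level outnumber calls of lower level in each of the 8 roles in each genotype, and all 16 phagosome genes were called in wild type, 13 of them as higher.

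Over the 21 libraries, the genes whose log2 levels followed each of the 10 most closely were found by Pearson correlation, given as a description, since all libraries share the same 4 groups. They were Jak1, Shtn1 and Dock1 for Mertk (r = 0.9985, 0.998 and 0.998), Gpd1l, Sfxn3 and Cpped1 for Axl (0.998, 0.998 and 0.998), and Slc25a18, Evl and Itgb5 for Tyro3 (0.996 for each). For Pros1 they were Adam10, M6pr and Ctnnb1 (0.999, 0.999 and 0.999), for Gas6 Cenpb, Agfg2 and Cited1 (0.9985, 0.998 and 0.998), and for Mfge8 Itm2c, Psap and Hfe (0.998 for each). Such values are common here: 24.9% of 18919 genes correlated with Mertk above 0.95, and 12.7% with Stab1. Stab1 was followed by Ilvbl, Hmox1 and Tinagl1 (0.981, 0.98 and 0.98), Scarb1 by Efhd2, Sema4b and Pgghg (0.995, 0.994 and 0.994), and Elmo1 by Arl5a, Bivm and Nup62cl (0.991 for each). No gene correlated with Adgrb1 above 0.95, and Tmem8 and Atp8a2 were among the closest (0.912 and 0.904).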

How the data were processed

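RNA of 21 whole testes was sequenced from stranded mRNA libraries, and the authors deposited 1 table of TPM per gene and library. STAR and the build mm10 are named in the submitters' processing notes; the program that gave the TPM, its annotation and the depth are not recorded there. TPM keeps no read counts, so no counting interval can be given and no count model was run.

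Columns were mapped to libraries by their names, and groups come from the labels. Genes averaging at least 1 TPM (18977) were tested with limma 3.58.1 in R 4.3.3 on log2(TPM + 1), with all 4 groups in 1 fit, a mean-variance trend and Benjamini-Hochberg adjustment at 0.05. The fit was tested on simulated data in which few genes changed. That does not cover these data, where 91.6% of genes tested were called after heat in wild type. Other pseudocounts, filters, scalings, weights, a replicate block and the omission of each library were tried. The p-values rest on the spread between testes within groups, pooled over all 4 groups, so those without heat also depend on heated testes.

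The members and gene lists were chosen with earlier results of these data known. All 10 members are named. Of the pathway list, the 3 largest called changes in each direction per comparison are named. Others (Itgb5, Stab2 and, after heat in either genotype, Itgav) were picked after their values were seen. Genes that this rule names for heat in a single genotype (Adam10, Vav1, Lrp1 and Tub) are given for the other genotype too. Promoter windows are RefSeq's (GRCm38.p6). A gene among those most like Adgrb1 is not reported here.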

Additional observations from a re-analysis of the deposited data

Results flagged for a closer look

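Among the 40 groups of a member's values examined, 4 held a library far from the others. Chance alone flags about 1 in 20 independent groups. These groups share their libraries and most members' levels correlate, so the 4 cannot be set against that rate. All 4 were in the unheated knockout. Replicate 6 was the high library for Tyro3 at 33.32 TPM, for Pros1 at 22.11 TPM and for Mfge8 at 75.78 TPM. Replicate 5 was the low library for Stab1 at 2.89 TPM. Replicate 6 also had the highest summed Sertoli and Leydig marker levels of the unheated libraries, 2587.8 and 2107.2 TPM. The endothelial, peritubular myoid and macrophage (without Aif1) sums were highest in other unheated knockout replicates.

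The heat effect differed between genotypes for every member by the interaction term of the limma fit. Knockout minus wild type, on the log2 scale, it was -1.2 for Mertk, -1.42 for Axl, -0.98 for Tyro3, -0.88 for Gas6, -1.57 for Pros1 and -1.61 for Mfge8. It was -0.61 for Scarb1, -0.8 for Elmo1, -0.59 for Stab1 and 0.73 for Adgrb1. Over all genes tested, 80.7% had a called difference of this kind.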

How the results depend on the processing

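No member changed direction among the called values under any alternative, and the calls of the 10 members after heat and between heated genotypes held under each alternative that tested them. A filter of 5 TPM did not test Adgrb1, so the counts of members lower after heat in wild type, higher in the heated knockout and higher for the difference of heat effects became 0, 0 and 0. Without heat the count of members higher in the knockout was 1. It was 2 with a pseudocount of 0.1, 2 with a filter of 5 TPM, 2 with median-of-ratios scaling, 0 without a filter, 0 with quantile normalization, 5 with only the groups compared and 5 with array weights. It ranged from 0 to 3 when 1 library was left out. The count of pathway genes higher there was 1, against 2, 2, 0, 0, 0, 7 and 17 in the same order, with 1 lower under array weights, and 0 to 2 when 1 library was left out. Over all genes tested, the count higher there was 237, against 444, 301, 109, 66, 37, 1175 and 2138 in the same order. These counts were of 18977 genes, but of 13162 with the filter of 5 TPM and 39589 without a filter. With 1 library left out, the count over all genes ranged from 15 to 468. In no comparison did every same-numbered pair deviate together (correlation over 0.1), so numbers were not taken to pair the testes: this held for 0 of 4 pairs for heat in wild type, 1 of 5 for heat in the knockout, 1 of 6 between unheated and 2 of 4 between heated genotypes (-0.16 to 0.31), and 0, 0, 1 and 2 libraries correlated best with their own number. With the replicate block, 1 member and 0 pathway genes were called between unheated genotypes, where 173 of 18977 genes were called higher and 8 lower. TPM keeps no depth, so the precision of low genes such as Adgrb1 cannot be stated.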
